A study of Homo sapiens with 4 samples.

Results

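The 9 genes described here are the matrix metalloproteases that lie side by side at 11q22: in chromosomal order MMP7, MMP20, MMP27, MMP8, MMP10, MMP1, MMP3, MMP12 and MMP13. They were measured in a gastric carcinoma line, NUGC3, with and without the arginine methyltransferase PRMT6. All probe sets of the array whose platform annotation names 1 of these genes were taken, which gave 10 probe sets (2 for MMP8 and 1 for each other gene) among the probe sets of 19775 named genes. MMP1 was chosen by its lower level in the knockout, so its values are given as a description without a test. The other 8 genes were picked by position and family, and the question was whether MMP1 was lower alone or together with its cluster.

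The series holds 4 single-colour Affymetrix expression arrays of total RNA. The 2 control arrays carry NUGC3 cells described as PRMT6 wild type, and the 2 knockout arrays carry NUGC3 cells in which PRMT6 was cut by a lentiviral Cas9 vector, followed by puromycin selection and limiting dilution to clones. The sources used here do not say whether the control cells carried a vector, how many clones the knockout arrays stand for, or whether replicates were separate cultures. The p-values therefore reflect the scatter of these 4 samples alone, which may be technical scatter. A difference made by PRMT6 loss and a difference between a clone and the parental population cannot be told apart in this design, nor can fewer cells making a transcript and less of it per cell. The guide that defines the knockout group is shown here, 5' to 3', as the labels give it.

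PRMT6 guide: gacggtactggacgtgggcg

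PRMT6 itself read 7.66 on each control array and 6.87 and 6.91 on the knockout arrays, a log2 difference of -0.77 (SE 0.086; limma adjusted p = 0.115 over all probe sets). An edited gene may still be transcribed, so this checks the labels only in part. Of 12 markers of gastric epithelium, 8 lay on all arrays above the background reference defined further on (CDH1, CLDN4, EPCAM, GATA6, KRT8, KRT18, KRT19 and MUC1), while the gastric genes ANXA10, CLDN18, TFF1 and TFF2 did not. Some of these markers differed between the groups: of 21 probe sets limma called 0, with 3 lower and 3 higher at an unadjusted p under 0.05, as 8.65% of all probe sets were in either direction. ANXA10, an annexin of gastric epithelium, read 5.39 and 5.36 in control and 4.14 and 3.83 in knockout cells (log2 difference -1.39, adjusted p = 0.0900), and with 1 probe set a gene it was called lower (adjusted p = 0.0483). GATA6, a transcription factor of gut epithelium, gave -0.70 (adjusted p = 0.236) and 0.0027 on its probe sets. CDH1 gave -0.35 on 1 probe set and -0.13, with overlapping groups, on the other. MUC1 gave 0.64, 0.64 and 0.26 on 3. Of markers of other cell types that can make metalloproteases, COL1A1 of 10 fibroblast genes, CD3E of 9 leukocyte genes and PECAM1 of 6 endothelial genes lay above that reference on all arrays. A gene, gastric or other, was counted if at least 1 of its probe sets did. The remaining probe sets of PECAM1, and some of COL1A1, lay below it on every array. The log2 values were summed over the probe sets of each list, most of whose genes did not lie above the reference. The fibroblast list came to 116.6 to 121.5 in control and 114.9 to 116.0 in knockout cells, and the leukocyte list to 59.3 to 62.4 and 59.0 to 59.4. The endothelial list came to 44.62 to 47.82 and 45.25 to 45.94. None of the probe sets of these lists were called by limma. In that order, 4 of 35, 1 of 18 and 0 of 12 were lower at an unadjusted p under 0.05, against the same 8.65%. The part of all these markers in the results was not tested. The control arrays differed at least 2-fold in 193 probe sets and the knockout arrays in 78.

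Matrix metalloproteases are zinc-dependent enzymes that are secreted or membrane-bound as inactive precursors and cut proteins of the extracellular matrix once their propeptide is removed. The collagenases (MMP1, MMP8, MMP13) open the triple helix of fibrillar collagen, the stromelysins (MMP3, MMP10) cut a wide range of matrix proteins and activate other precursors, and tissue inhibitors (TIMPs) block the active enzymes. Several genes of the family are known to respond to interleukin 1 and growth factors through AP-1, a dimer of FOS and JUN proteins that binds DNA near the transcription start.

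Promoters from RefSeq (GRCh38.p14, 250 bases before to 50 after the start) were at hand for 5 of the 9 genes, MMP7, MMP20, MMP27, MMP8 and MMP10. The promoters of MMP1, MMP3, MMP12 and MMP13 were not used here. Those of MMP10, which neighbours MMP1, and of MMP7, at the end of the cluster, are printed because both hold a match to the AP-1 motif at the same distance from the start. Capitals mark the match to TGANTCA, searched on both strands.

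MMP10 promoter, chr11:102780579-102780878, minus strand: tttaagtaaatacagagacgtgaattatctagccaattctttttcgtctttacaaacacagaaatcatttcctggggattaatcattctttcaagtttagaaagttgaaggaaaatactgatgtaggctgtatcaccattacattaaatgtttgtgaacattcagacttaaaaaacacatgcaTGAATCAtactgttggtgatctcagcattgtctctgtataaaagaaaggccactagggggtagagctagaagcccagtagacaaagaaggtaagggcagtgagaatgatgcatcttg

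MMP7 promoter, chr11:102530698-102530997, minus strand: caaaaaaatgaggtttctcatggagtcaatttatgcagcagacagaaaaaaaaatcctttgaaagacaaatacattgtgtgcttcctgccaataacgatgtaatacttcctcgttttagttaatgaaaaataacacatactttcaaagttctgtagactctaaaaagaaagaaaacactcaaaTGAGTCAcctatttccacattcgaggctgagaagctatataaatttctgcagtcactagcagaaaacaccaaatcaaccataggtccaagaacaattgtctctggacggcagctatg

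In both, the match begins at position -67 relative to the start. MMP20 also held a match, at position -112, while MMP27 and MMP8 held none in this window. Among 35116 promoters of the same length, 7.71% held at least 1 match. A match describes the letters and does not show that a factor binds there.

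MMP1, the interstitial collagenase that cuts type I and III collagen, was measured by 1 probe set. Its RMA log2 expression was 7.81 and 7.78 on control replicates 1 and 2 and 5.64 and 5.62 on knockout replicates 1 and 2. The control arrays lay together, the knockout arrays lay together, and the groups were far apart. The control mean was 7.80 ± 0.021 and the knockout mean 5.63 ± 0.011 (SD, n = 2 each). The log2 difference was -2.16 (SE 0.085), or 4.48-fold lower, and differences between single arrays ran from -2.14 to -2.19. MMP1 had the fourth lowest log2 difference of all 54613 probe sets on the array.

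The deposited table holds no detection calls. As a reference for background, 171 probe sets of olfactory receptors and keratin-associated proteins were used, gene families that a carcinoma line is taken to leave largely silent. The 95th percentile of these probe sets was 5.21, 5.57, 5.23 and 5.29 on control replicates 1 and 2 and knockout replicates 1 and 2. MMP1 lay above it on all 4 arrays, by 2.41 on average in control cells and by 0.41 and 0.33 on the knockout arrays. Its place among all probe sets went from the 84.1 to 84.6 percentile in control to the 62.9 to 63.0 percentile in knockout cells. Since the knockout level lies close to background, where RMA compresses differences, the fold is uncertain.

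The other 2 collagenases of the cluster were below the reference on every array, which limits how much lower a knockout level could read. MMP8, the neutrophil collagenase, read 2.97 and 3.08 in control and 3.06 and 2.94 in knockout cells on its first probe set, and 2.61 and 2.65 against 2.52 and 2.74 on its second. The groups overlapped on both, with log2 differences of -0.022 (95% limma interval -0.28 to 0.24) and -0.00068 (-0.30 to 0.29), both slightly above 0 after quantile or cyclic loess normalization. MMP13, a collagenase that prefers type II collagen, read 3.56 and 3.46 in control and 3.46 and 3.44 in knockout cells. Its groups overlapped, and its log2 difference was -0.057 (-0.30 to 0.18).

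Of the stromelysins, MMP10 read 4.28 and 3.78 on control replicates 1 and 2 and 3.73 and 3.41 on knockout replicates 1 and 2, so the highest knockout value lay just under the lowest control value. The log2 difference was -0.46 (interval -1.02 to 0.099), which did not pass (limma adjusted p = 0.635), and the spread between the control arrays (SD 0.35) was nearly as large. With 1 array left out it ranged from -0.71 (without control replicate 2) to -0.21 (without control replicate 1), so its place among the neighbours is not settled. MMP3, which activates the MMP1 precursor, read 2.49 and 2.66 in control and 2.45 and 2.36 in knockout cells. These values did not overlap either, with a log2 difference of -0.17 (-0.45 to 0.11; adjusted p = 0.701).

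The remaining 4 genes overlapped between the groups. MMP12, the macrophage elastase, read 2.25 and 2.58 in control and 1.86 and 2.28 in knockout cells, a log2 difference of -0.35 (-0.86 to 0.17; adjusted p = 0.680). It ranged from -0.56 (without knockout replicate 2) to -0.13 (without knockout replicate 1). MMP7, matrilysin, an epithelial enzyme without the hemopexin domain of its relatives, read 3.38 and 3.55 against 3.59 and 3.44, a log2 difference of 0.051 (-0.25 to 0.35). It was the only neighbour with a value above 0. MMP27 read 2.98 and 3.30 in control and 3.05 and 2.93 in knockout cells, a log2 difference of -0.15 (-0.52 to 0.22). MMP20, enamelysin of developing teeth, read 2.45 and 2.40 against 2.34 and 2.45, a log2 difference of -0.027 (-0.27 to 0.22).

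**Figure D1:**
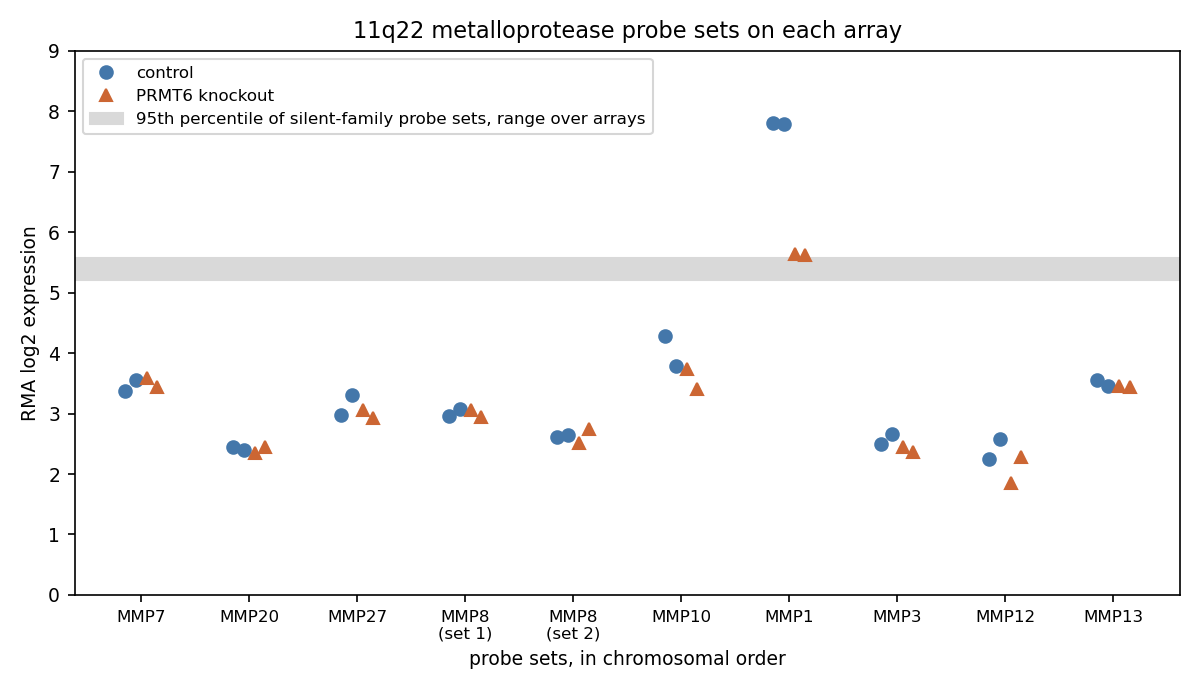
RMA log2 expression (vertical axis) of the 10 probe sets of the 11q22 metalloproteases in chromosomal order (horizontal axis), with circles for the 2 control and triangles for the 2 PRMT6 knockout arrays; the grey band is the range over arrays, 5.21 to 5.57, of the 95th percentile of the silent-family probe sets. MMP1 alone lies above the band on every array, at 7.81 and 7.78 in control and 5.64 and 5.62 in knockout cells, and every other value lies between 1.86 and 4.28.

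Of the 10 probe sets of the cluster 1 was called, that of MMP1, and none of the 9 probe sets of its 8 neighbours were (limma, adjusted p under 0.05 over all probe sets). Over the whole table, 81 of 54613 probe sets (0.148%) were called, and 17 (0.0311%) were called lower. Because MMP1 was chosen from this contrast, nothing follows from its call. Of the neighbours, 0 of 9 probe sets reached an unadjusted p of 0.05, as 8.65% of all probe sets did, and their adjusted p ran from 0.635 to 1. Their median log2 difference was -0.057, against -0.0029 over all probe sets, and 8 of the 9 were below 0, as were 51.0% of all. In 2 of the 9, MMP10 and MMP3, both knockout values lay below both control values, as in 18.9% of all probe sets.

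The neighbours' levels limit what this can show. All 9 probe sets were below the reference and below the array median on all 4 arrays, with values between 1.86 and 4.28. A gene that is not expressed in control cells cannot be seen to go down, so for these 8 genes the arrays show no level clearly above background in either group rather than a level that was kept. Their differences are bounded by this floor and cannot be set against that of MMP1. With any 1 of the 4 arrays left out, 1 group has a lone array that is assumed to vary like the other group's pair, and limma called 0 probe sets in the whole table. That fit is too small to speak for or against any call, CASP1 below included. The difference of MMP1 then ranged from -2.18 to -2.15.

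The genes beyond the cluster were set beside it in the order of the reference gene table. The 10 nearest measured genes on each side, 20 genes with 41 probe sets, had a median log2 difference of -0.016, which was 0.0018 after cyclic loess normalization. Only 6 of the 20 genes had a probe set above the background reference on all arrays, so the floor limits this median too. On the MMP7 side, the nearest genes were TMEM123-DT at 0.23, TMEM123 at -0.095 and BIRC2, an inhibitor of apoptosis, at 0.12. On the MMP13 side they were DCUN1D5, with -0.24 to -0.023 on 3 probe sets, DYNC2H1, a motor of cilia, with -0.096 to 0.098, and PDGFD, a platelet-derived growth factor, with -0.048 and 0.059. None of the probe sets of these 6 nearest genes passed. Those of TMEM123-DT and PDGFD lay below the background reference on every array. YAP1, a transcriptional coactivator further out on the MMP7 side, gave -0.16 to -0.13 on 3 probe sets. Of the 25 measured genes on each side of MMP1 whose level was above the median, 19 of 50 (38.0%) were below 0, with a median of 0.030; over all 12761 such genes it was 46.3%, with a median of 0.011. WTAPP1, a transcribed pseudogene whose annotated span includes MMP1, had no probe set of its own and was not analysed here.

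One flanking gene was called, in the opposite direction to MMP1. CASP1, the inflammatory caspase that cuts the precursor of interleukin 1 beta, rose on 2 of its 5 probe sets. On the first of these it read 3.91 and 4.05 in control and 5.70 and 5.69 in knockout cells, a log2 difference of 1.72 (SE 0.096, limma adjusted p = 0.0309). On the second it read 2.71 and 2.52 against 4.24 and 4.20, a difference of 1.60 (SE 0.11, adjusted p = 0.0395). The other 3 probe sets were also higher in knockout cells, at 1.12, 0.84 and 0.38, without passing. Of all 41 flanking probe sets, 6 were higher and 0 lower at an unadjusted limma p under 0.05. The share was 8.65% of all probe sets in either direction. The 6 are the 5 probe sets of CASP1 and that of CASP12, which gave 0.36 below the background reference on every array. The control values of both called probe sets lay below the background reference, and on the second the knockout values did too. The probe set with the highest mean was the one that gave 0.38, so CASP1 was not called with 1 probe set a gene. Its next neighbour CARD16 is a close relative in sequence and could share probes with it. CARD16 gave 0.091 and -0.016, on probe sets that lay below the background reference on every array. Without 1 array at a time, the 2 called differences ranged from 1.65 to 1.79 and from 1.51 to 1.70, with no call.

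Metalloproteases encoded elsewhere in the genome were not called either. Of 14 listed genes 13 were measured, by 33 probe sets, and limma called 0 of them. Without adjustment, 1 was higher and 1 lower at a p under 0.05, against 8.65% of all probe sets in either direction. The median log2 difference was -0.070. MMP9, a gelatinase, read 9.71 and 9.54 in control and 10.21 and 10.15 in knockout cells. Both knockout values were higher, by 0.56 on the log2 scale (SE 0.10, adjusted p = 0.267). MMP11 gave -0.35 to 0.082 on 4 probe sets, MMP28 -0.27 to 0.22 on 5 and MMP19 -0.28 and -0.029 on 2. The lowest value of each of these genes came from a probe set below the background reference on every array. MMP14, the membrane-bound activator of other family members, gave -0.094 to 0.052 on 4 probe sets.

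Among the 6 inhibitors, with 16 probe sets, 0 were called by limma. At an unadjusted p under 0.05, 2 were lower, against 8.65% of all probe sets in either direction. Both lower probe sets belong to TIMP3, the inhibitor that stays bound to the matrix. On its brightest probe set TIMP3 read 6.18 and 6.26 in control and 5.81 and 5.76 in knockout cells, a log2 difference of -0.43 (SE 0.090, adjusted p = 0.323). The remaining 3 probe sets of TIMP3 gave -0.66, -0.59 and -0.45, but lay below the background reference on every array. TIMP1, the soluble inhibitor, read 11.33 and 11.21 against 11.14 and 11.22, which overlapped. TIMP2 gave 0.084 to 0.093 on 3 probe sets, and RECK, a membrane-anchored inhibitor, -0.16 to 0.042 on 5.

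The plasminogen system, whose product plasmin can activate metalloprotease precursors, was measured by 6 of 8 listed genes and 12 probe sets. Limma called 0. At an unadjusted p under 0.05, 3 were higher and 1 was lower, against 8.65% of all probe sets in either direction. PLAU, urokinase, read 10.73 and 10.61 in control and 11.25 and 11.22 in knockout cells on its brighter probe set, a log2 difference of 0.57 (SE 0.094, adjusted p = 0.229). The second probe set also gave 0.57. PLAT, the tissue-type activator, read 10.60 and 10.54 against 10.03 and 9.91, a difference of -0.60 (SE 0.095, adjusted p = 0.216). Neither gene overlapped between the groups, and they differed in opposite directions. SERPINE2, a protease inhibitor, gave 0.30 and 0.25, and PLAUR, the urokinase receptor, 0.13 to 0.22.

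Of 11 listed collagens and matrix receptors 10 were measured, by 35 probe sets, and limma called 0. Of these probe sets, 2 were lower at an unadjusted p under 0.05, against 8.65% of all probe sets in either direction. COL1A1, a chain of the type I collagen that MMP1 cuts, gave -0.60 on a probe set reading 6.73 and 6.46 in control and 6.10 and 5.87 in knockout cells (SE 0.15, adjusted p = 0.382). Its brightest probe set gave 0.023, so the probe sets of this gene disagree. COL3A1 gave -0.32 to 0.12 on 5 probe sets. DDR2, a collagen receptor, gave -0.37 to 0.069 on 4, and ITGB1, the integrin beta 1 chain, -0.20 to -0.11 on 7. All these probe sets of COL3A1 and DDR2 lay below the background reference on every array. F2R, the thrombin receptor that MMP1 can cleave, gave -0.19 and -0.072.

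Among 16 measured inducers and receptors of 17 listed, with 43 probe sets, limma called 0, while 11 were lower and 2 were higher with an unadjusted p under 0.05 (8.65% of all probe sets in either direction). The lowest values belonged to the interleukin 1 genes. IL1B read 11.33 and 11.23 in control and 10.17 and 10.27 in knockout cells, a log2 difference of -1.06 (SE 0.096, adjusted p = 0.0804), and -0.999 on its second probe set (adjusted p = 0.0796). With 1 probe set a gene, where 94 of 19775 genes (0.475%) were called, IL1B was called (adjusted p = 0.0355). IL1A read 12.12 and 12.10 against 11.55 and 11.51, a difference of -0.58 (SE 0.086, adjusted p = 0.192). The IL1B region differed as well: of the 25 genes above the median level on each side of IL1B on chromosome 2, 49 of 50 were below 0, with a median of -0.39, and the part of this in the interleukin 1 values was not tested. The growth factors HBEGF and EGF gave -0.42 to -0.38 on 4 probe sets and -0.42 on 1. The EGF probe set and the HBEGF probe sets at -0.42 and -0.40 lay below the background reference on every array.

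Both lists of transcription factors had medians above 0, with no member called. Of 10 AP-1 genes with 23 probe sets limma called 0. Without adjustment, 2 were higher and 0 lower at a p under 0.05, against 8.65% of all probe sets in either direction. The median log2 difference was 0.12. FOSL2 read 7.88 and 7.70 in control and 8.11 and 8.19 in knockout cells, a difference of 0.36 (SE 0.11, adjusted p = 0.478), with -0.13 to 0.25 on its other 4 probe sets. JUND gave -0.072 to 0.29 on 4 probe sets, ATF3 0.11 to 0.30 on 3 and JUN 0.032 to 0.21 on 4. FOSL1 gave -0.040 and FOS 0.12. The list of ETS, RUNX and C/EBP factors, of which 12 of 13 were measured by 37 probe sets, had 0 called by limma. Without adjustment, 3 were higher and 0 lower at a p under 0.05, against the same 8.65%, and the median was 0.074. RUNX2 read 6.59 and 6.01 in control and 7.13 and 6.99 in knockout cells on 1 of its 6 probe sets, a difference of 0.76 (SE 0.22, adjusted p = 0.455), with -0.26 to 0.11 on the others. That difference was 1.05 without control replicate 1 and 0.47 without control replicate 2. ETV5 gave 0.0095 to 0.34, ELF3 0.028 to 0.42 and ETS1 -0.12 to 0.18.

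**Figure D2:**
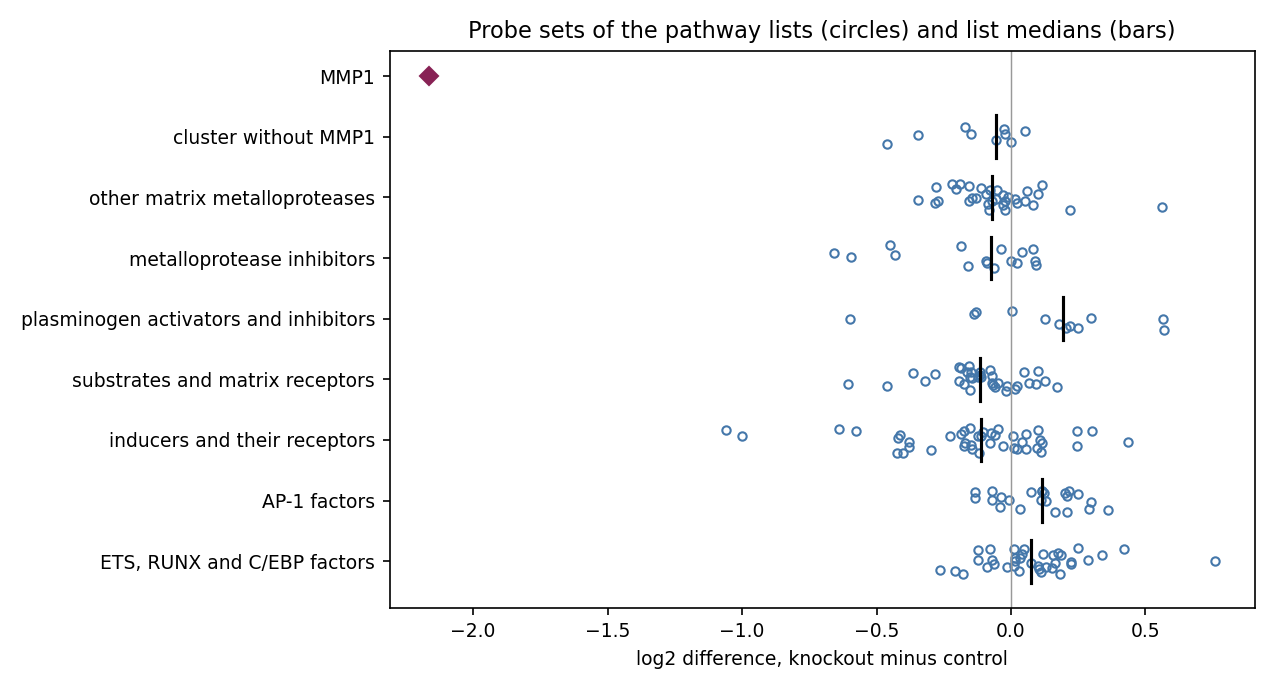
Log2 difference of knockout minus control (horizontal axis) for every probe set (circles) of the cluster without MMP1 and of 7 lists of metalloproteases and their inhibitors, activators, substrates, inducers and transcription factors, with list medians as bars. The list medians lie between -0.12 and 0.19, and MMP1, the diamond at -2.16, lies below every circle. The circles of the cluster come from probe sets below the background reference on every array, which bounds their differences.

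The genes whose array profile was most like that of MMP1 were found by the Euclidean distance between the 4 values of each gene, centred on the gene's mean, over 19775 genes. With 4 arrays this mainly finds genes with a like difference between the groups, so it is a description of the same contrast. The nearest was HMMR, which binds hyaluronan and also sits on mitotic spindles, at a distance of 0.071. HMMR read 9.47 and 9.44 in control and 7.33 and 7.37 in knockout cells, a log2 difference of -2.11. IFI27, an interferon-induced gene, followed at 0.23, with 7.22 and 7.01 against 5.13 and 5.15. HCLS1, a cytoskeletal adaptor known from blood cells, lay at 0.38, with 6.38 and 6.01 against 4.29 and 3.87. COX7B2, a subunit of cytochrome oxidase, lay at 0.38, with 4.68 and 4.91 against 3.02 and 2.89. OR7E19P, an olfactory receptor pseudogene and itself a member of the background reference, lay at 0.47, with 5.19 and 5.10 against 3.45 and 3.44. COX7B2 and OR7E19P lay below the background reference on every array, and IFI27 and HCLS1 lay below it on the knockout arrays. That the groups did not overlap in these 5 nearest genes follows from choosing them by a small distance to MMP1. None of the 5 is a metalloprotease, and the neighbours of MMP1 lay below the reference, which limits the difference they could show.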

How the data were processed

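Total RNA of NUGC3 cells was measured on 4 arrays, 2 control and 2 PRMT6 knockout, grouped by their titles. The authors deposited 1 log2 value for each probe set and array; RMA and affy are named in the submitters' processing notes, without settings or versions. The number of arrays, not a read depth, limits the precision. There were 54613 probe sets, of which 41091 have 1 gene symbol in the platform annotation, 1801 several and 11721 none; 41037 matched the GRCh38.p14 gene table by gene ID, which changed 0 symbols and gave only names and gene order. Knockout was compared with control by limma 3.58.1 in R 4.3.3 (lmFit and eBayes with default settings, two-sided, Benjamini-Hochberg over all probe sets, called at an adjusted p under 0.05). With 2 arrays against 2 an exact permutation test cannot go below 0.333, so calls rest on limma's model (prior degrees of freedom 2.64). The fit was tested on data simulated from limma's own model. That test does not show how well the model describes these arrays. Genes listed without a probe set of 1 symbol were not analysed here.

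Members, gene lists and tests were chosen with earlier results of these data known. Named were all 9 members; of each other list the called genes or else up to 4 with the smallest p; the 3 nearest measured flanking genes on each side and any called one; and the 5 genes of nearest profile. MMP14, F2R, YAP1, CARD16, CASP12, FOS and FOSL1 were named outside this rule, after their values were seen. The comparison with 25 genes on each side was likewise chosen after its values were seen. Alternatives were quantile and cyclic loess normalization, 1 probe set or the mean per gene, a filter on dim probe sets, trended robust variances, a replicate block, and leaving out each array.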

Additional observations from a re-analysis of the deposited data

How the results depend on the processing

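The direction of MMP1, for which it was chosen, was the same in every alternative run. Its log2 difference was -2.20 with quantile and -2.21 with cyclic loess normalization, and -2.18 to -2.15 with 1 array left out. It was -2.16 under the others that used all arrays, which could not change it. MMP1 has 1 probe set, so its mean difference stayed as it was, and a block balanced over the groups keeps that difference. The median of its neighbours stayed between -0.10 and -0.012 and could not be computed with dim probe sets left out, since all 9 were removed; it was -0.088 to -0.053 with 1 array left out. The count of members called was 1 (MMP1, which this contrast chose, so that its call is no evidence), 0 under the replicate block and 0 to 0 with 1 array left out. The number of member probe sets above the background reference was 1 at its 95th and 90th percentile and at the array median. The count of flanking probe sets called was 0 with 1 probe set a gene, 1 with the mean of all probe sets, 1 with dim probe sets left out, 3 with trended robust variances, 0 under the replicate block and 0 to 0 with 1 array left out, against 2 as reported. Among activators, substrates, inducers and transcription factors, 1 probe set (IL1B) was called after cyclic loess normalization, 1 with 1 probe set a gene and 1 with the mean, 2 with dim probe sets left out and 9 with trended robust variances (of HBEGF, IL1A, IL1B, PLAT, PLAU and SERPINE2). Trended robust variances also called 1 other metalloprotease, MMP9. The count over the whole table was 81 as reported, 123 after cyclic loess, 138 with the mean per gene, 167 with dim probe sets left out, 883 with trended robust variances and 0 under the block or without any 1 array; fits without 1 array take their spread from the other group's 2 arrays, and the other causes were not tested.

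The replicate numbers share no stated culture or batch, and the deviations of same-numbered arrays correlated at 0.094, so the block is given here only. Each group holds 1 array of each replicate number, so the block could not change any difference and is no check of direction. Signs turned for MMP8, at 0.0096 and 0.024 after quantile and 0.012 and 0.024 after cyclic loess normalization, and for MMP28, at -0.066 with the mean of its probe sets. With 1 array left out the range crossed 0 for MMP7 (-0.034 to 0.14), MMP8 (-0.078 to 0.033 and -0.11 to 0.11), MMP20 (-0.082 to 0.028), MMP27 (-0.31 to 0.014), RECK (-0.33 to 0.013), DYNC2H1 (-0.042 to 0.24) and PDGFD (-0.0017 to 0.12). Signal close to background limits all of the neighbours.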

Other observations

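Some of the values in the table are shared to the last deposited digit. Of the 36 values of the 8 neighbours of MMP1 on the 4 arrays, 5 were identical to that of at least 1 other probe set of the same array, and 1 of them was shared with 102 others. Over all values, 7.80% of values were shared in this way. In 33 probe sets both control values were identical and both knockout values were identical; limma called 0 of these, and 0 reached an unadjusted p under 0.05.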
